A study of Mus musculus with 2 samples.

Results

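Mitotic leukemia cells of the mouse, from acute myeloid leukemia driven by *MLL-AF9* and profiled by droplet single-cell sequencing, were taken as the cells with the largest share of mitotic transcripts. Cells in which at least 500 genes were detected were kept, and in each the UMIs (molecular tags that count captured transcripts once each) of 8 genes, *Ube2c*, *Ccnb1*, *Ccnb2*, *Cdc20*, *Aurka*, *Cenpa*, *Nusap1* and *Cdca8*, were summed and divided by the cell's total. The 10% of kept cells with the highest share, both libraries pooled, were selected on these measured values. They numbered 741 of 7411 kept cells, out of 8309 deposited (4069 labelled WT, 4240 labelled KO), with 319 from the former and 422 from the latter library. The remaining 6670 kept cells are called other cells. Because the 8 genes chose the cells, their own levels and every difference between mitotic and other cells are given as a description with no test.

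Donor mice were *Kat2a* Flox/Flox on a C57Bl/6 background and were Mx1-Cre -/- (WT) or Mx1-Cre+/- (KO, in which the recombinase removes the floxed part of *Kat2a*). All were given pIpC, an interferon inducer that switches on the Mx1 promoter in many tissues besides blood, and marrow was taken 4 to 6 weeks later. Lineage-depleted marrow cells were then transduced by retrovirus with *MLL-AF9*, a fusion oncogene linked to a YFP reporter, and injected into lethally irradiated recipients, which can keep some marrow cells of their own. Terminal leukemias were frozen, thawed and pooled by genotype, 5 for WT and 4 for KO, with no label for the leukemia a cell came from, and live YFP+ single cells were sorted for 1 library per genotype, aimed at 6000 cells each.

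With 1 library per genotype no comparison between genotypes could be tested, and every interval given here is an exact 95% interval that covers counting error only. *Kat2a* itself, the targeted gene, went against the labels: it had 9 UMIs in the mitotic cells of the library labelled WT and 111 in those of the library labelled KO, or 7.55 and 94.9 CPM (counts per 1000000 UMIs). The assay reads the 3′ end of transcripts, which an excised allele may still make, so it need not show a loss. Why the level was higher in the library labelled KO was not tested. Which barcode suffix is which genotype is not in the labels and comes from the study's analysis code. The direction of every difference between the libraries rests on that assignment. The study also counts fewer KO than WT cells, the order that the assignment gives for the kept cells here.

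Mitosis is driven by cyclin B bound to CDK1, and it ends when the anaphase-promoting complex, an E3 ubiquitin ligase activated by CDC20 and supplied with ubiquitin by UBE2C and UBE2S, marks securin and cyclin B for destruction. Transcripts of these genes build up through G2 and peak in mitosis, under a shared programme in which the MuvB complex with B-MYB and FOXM1 acts at CHR elements (TTTGAA) and NF-Y at CCAAT boxes of their promoters. Replication genes such as the MCM helicase are instead transcribed from late G1 into S phase. In the granulocyte lineage, proliferation continues through the promyelocyte and myelocyte stages and stops before the band and segmented stages.

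The promoters of 4 of the 8 rule genes, of *Plk1* and of *Fam83d* are shown because they differ in how many matches to the letters of the shared programme they hold, down to none in *Nusap1*. *Plk1* is a mitotic gene the rule did not use, and *Fam83d* is the gene in no list with the largest ratio of mitotic to other cells, taking the smaller of the 2 libraries' ratios. The windows are RefSeq sequences on GRCm38.p6 from 250 bases before to 50 bases after the annotated start, read 5′ to 3′, and capitals mark TTTGAA or CCAAT on either strand, so that TTCAAA and ATTGG are also in capitals.
Ube2c, chr2:164769679-164769978, plus strand: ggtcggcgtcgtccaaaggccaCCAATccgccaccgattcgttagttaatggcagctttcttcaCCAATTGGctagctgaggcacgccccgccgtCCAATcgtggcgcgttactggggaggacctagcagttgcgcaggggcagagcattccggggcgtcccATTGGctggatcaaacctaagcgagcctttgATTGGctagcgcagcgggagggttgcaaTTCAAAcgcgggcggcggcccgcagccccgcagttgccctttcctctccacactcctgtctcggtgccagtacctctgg
Cdc20, chr4:118437294-118437593, minus strand: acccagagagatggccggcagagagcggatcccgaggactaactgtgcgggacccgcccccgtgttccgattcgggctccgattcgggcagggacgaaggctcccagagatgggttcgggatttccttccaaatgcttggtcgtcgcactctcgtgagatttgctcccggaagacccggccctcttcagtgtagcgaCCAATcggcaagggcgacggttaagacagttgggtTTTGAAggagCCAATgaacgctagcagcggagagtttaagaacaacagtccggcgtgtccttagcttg
Ccnb1, chr13:100786437-100786736, minus strand: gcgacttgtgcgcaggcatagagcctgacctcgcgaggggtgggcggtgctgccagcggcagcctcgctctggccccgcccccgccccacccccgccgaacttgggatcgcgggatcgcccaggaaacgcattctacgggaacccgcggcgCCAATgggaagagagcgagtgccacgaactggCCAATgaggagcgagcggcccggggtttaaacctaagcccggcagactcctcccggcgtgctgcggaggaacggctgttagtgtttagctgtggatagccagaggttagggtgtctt
Nusap1, chr2:119618048-119618347, plus strand: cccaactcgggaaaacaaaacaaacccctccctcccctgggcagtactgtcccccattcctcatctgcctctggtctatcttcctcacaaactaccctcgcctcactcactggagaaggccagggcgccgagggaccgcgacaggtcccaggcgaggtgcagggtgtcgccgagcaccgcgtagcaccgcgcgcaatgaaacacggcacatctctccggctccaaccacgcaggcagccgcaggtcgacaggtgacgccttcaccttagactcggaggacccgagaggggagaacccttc
Plk1, chr7:122159185-122159484, plus strand: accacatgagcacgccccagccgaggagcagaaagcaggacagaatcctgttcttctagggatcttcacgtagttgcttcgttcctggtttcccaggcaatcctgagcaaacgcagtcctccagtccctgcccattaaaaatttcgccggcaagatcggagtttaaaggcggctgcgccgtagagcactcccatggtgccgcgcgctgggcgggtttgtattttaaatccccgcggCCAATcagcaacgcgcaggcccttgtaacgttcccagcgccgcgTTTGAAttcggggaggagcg
Fam83d, chr2:158767849-158768148, plus strand: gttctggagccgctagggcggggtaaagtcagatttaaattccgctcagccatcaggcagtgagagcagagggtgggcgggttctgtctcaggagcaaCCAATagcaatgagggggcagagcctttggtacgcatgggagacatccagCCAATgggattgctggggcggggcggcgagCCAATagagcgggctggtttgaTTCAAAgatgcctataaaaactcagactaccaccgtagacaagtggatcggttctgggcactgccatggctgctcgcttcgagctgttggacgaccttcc
In *Cdc20* TTTGAA began at position -18 and in *Ube2c* its reverse complement at -29, counting the first transcribed base as 0. *Ube2c* held 6 matches to CCAAT, a pair of which overlap, while the window of *Ccnb1* held 2 matches to CCAAT and none to TTTGAA. The window of *Nusap1* held neither.

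TTTGAA was found in the windows of 6 of the 8 rule genes (75%) and in those of 41 of 68 other mitotic genes with a window (60.3%). It was found in 1038 of 7141 genes with a window among all genes with enough UMIs (14.5%), and in 3 of 22 S phase genes (13.6%). CCAAT was found in 7 of the 8 rule genes (87.5%), in 49 of the 68 (72.1%) and in 3129 of the 7141 (43.8%). Among genes in no list that were 2-fold or more higher in mitotic cells of both libraries, 47 of 104 held TTTGAA (45.2%), against 52 of 388 genes 2-fold or more lower (13.4%). Over the 27025 genes of the whole promoter table the shares were 20.2% for TTTGAA and 41.1% for CCAAT. A match is a description of the letters in the window and not a site of binding.

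*Ube2c*, the ubiquitin-conjugating enzyme of the anaphase-promoting complex, stood at 1520 CPM in mitotic cells against 72.2 CPM in other cells of the library labelled WT, and at 1392 against 74.95 CPM in the library labelled KO. *Ccnb1* (cyclin B1) stood at 730 against 46.9 CPM and at 751 against 62.4 CPM. *Cdc20*, the activator of the anaphase-promoting complex, stood at 483 against 38.7 CPM and at 596 against 50.2 CPM. These 3 genes had the largest ratios among the rule genes, from 11.9-fold for *Cdc20* to 21.1-fold for *Ube2c*, while the smallest was that of *Cdca8* (borealin, a subunit of the chromosomal passenger complex).

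*Cenpa*, the centromeric histone H3 variant, stood at 1019 and 1203 CPM in the mitotic cells of the libraries labelled WT and KO. *Ccnb2* (cyclin B2) stood at 897 and 903 CPM, *Cdca8* at 588 and 664 CPM, *Nusap1* (a spindle microtubule protein) at 484 and 565 CPM and *Aurka* (a spindle pole kinase) at 243 and 287 CPM. In other cells these 5 genes lay between 30.4 and 145 CPM. Their ratios ran from 6.59-fold for *Cdca8* to 11.3-fold for *Cenpa*.

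A mitotic cell held a median of 17 rule gene UMIs, from 5 to 69, and a median of 6 of the 8 genes. All 8 genes were detected in 150 mitotic cells (20.2%), with 96 among the 319 of the library labelled WT and 54 among the 422 of that labelled KO. At most 2 of the 8 were detected in 12 mitotic cells. Among other cells, 4376 had no rule gene UMI, but 630 had 4 or more of the 8 genes, so the limit cuts through a continuous range. The last cell inside the limit had 15 rule gene UMIs of 3943 (0.380421%), and the first cell outside had 19 of 5000 (0.38%). Within 1.25 times the limit lay 210 mitotic cells and 213 other cells.

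**Figure D1:**
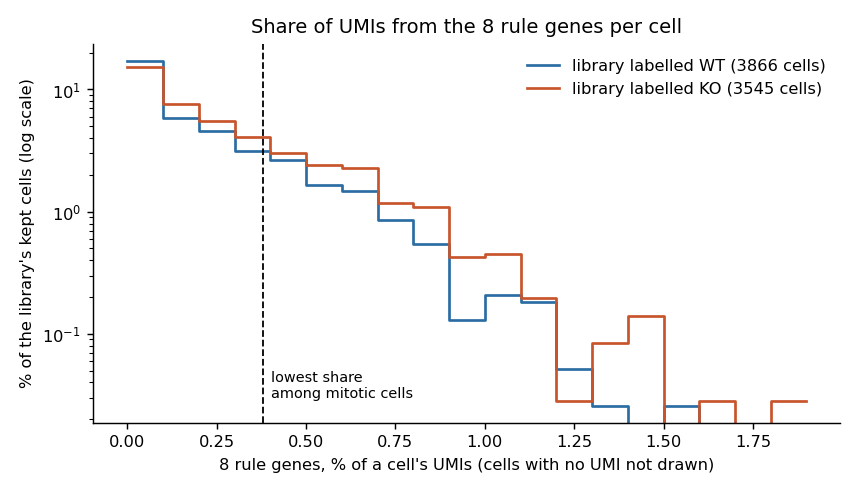
Share of each kept cell's UMIs that came from the 8 rule genes, in bins, as a percentage of the kept cells of each library on a log scale. Cells with no UMI of the 8 genes are not drawn, and the dashed line is the lowest share among the mitotic cells. Neither library shows a gap at the line.

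The label was checked on 12 mitotic genes that the rule did not use. Each of the 12 was higher in mitotic than in other cells in both libraries, as were 2609 of all 9307 genes with enough UMIs (28%), with log2 ratios from 1.87 for *Top2a* (DNA topoisomerase II alpha) to 4.13 for *Cenpf* (a kinetochore protein). *Plk1*, the polo-like kinase of mitotic entry, stood at 164 against 23.1 CPM in the library labelled WT and at 156 against 22.2 CPM in the library labelled KO. *Birc5* (survivin) was detected in 85.8% of mitotic cells and 19.5% of other cells, and *Prc1*, which bundles the central spindle, in 39.1% and 5.3%. Like the rule genes, these 12 are transcripts of G2 and mitosis, so the rule itself favours this outcome. The check cannot tell G2 cells from cells in mitosis, and the cells called mitotic may include G2 cells.

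Detection follows depth, and mitotic cells were deeper. The median was 3519 UMIs in mitotic against 2515 in other cells of the library labelled WT (1.40 times), and 2467 against 1795 in the library labelled KO (1.37 times). Median genes per cell were 1293 against 1025 and 1003.5 against 791. After thinning every cell to 1000 UMIs, which left out 1 mitotic and 65 other cells of the library labelled WT and 1 and 193 of the library labelled KO, median genes per cell were 565 against 564 and 553 against 557. At 1000 UMIs *Ube2c* was detected in 64.8% of mitotic and 4.4% of other cells, and *Birc5* in 57.9% and 11.2%. As a background served 354 cells rich in transcripts of mature granulocytes, a cell type that does not divide. Cells chosen by the rule had been removed from them, which by itself lowers detection of rule genes there. The 354 cells were still not free of rule gene transcripts, with 180 UMIs or 283 CPM. Other cells had 520 and 668 CPM in the libraries labelled WT and KO. In these 354 cells *Ube2c* was detected in 4.8% at their own depth (median 1643.5 UMIs, against 2841 in mitotic and 2115 in other cells) and in 2.1% at 1000 UMIs. *Birc5* was detected in 5.9% and 2.4% of these background cells, and *Prc1* in 1.1% and 0.92%.

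**Figure D2:**
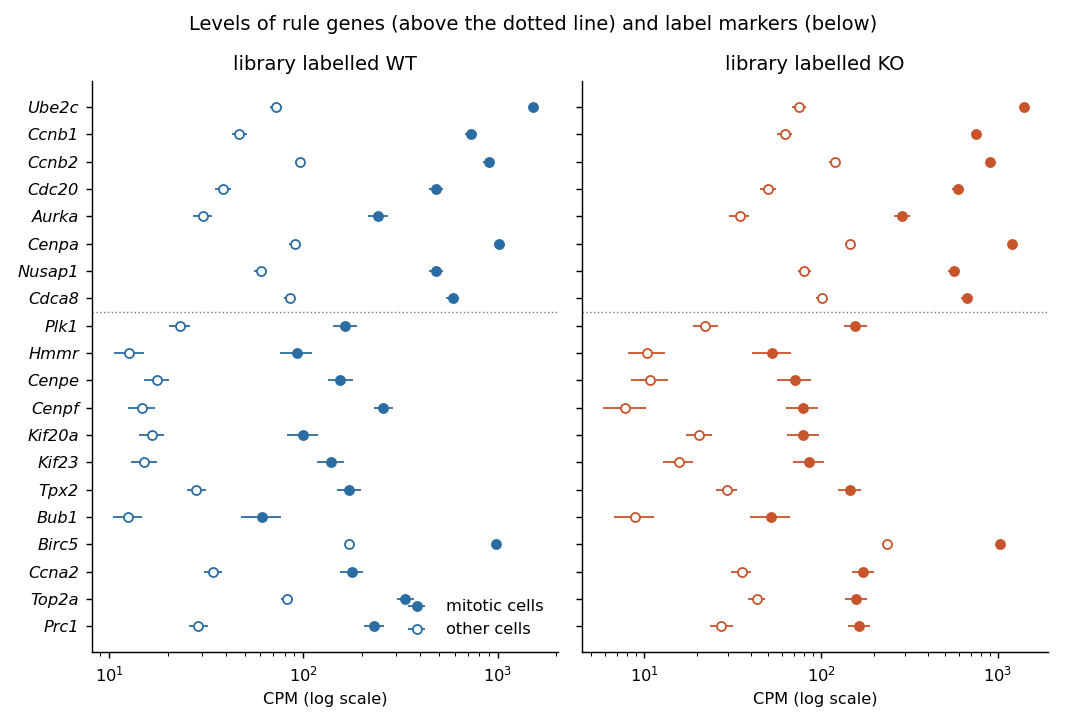
CPM (log scale) of the 8 rule genes, above the dotted line, and of 12 mitotic genes not used by the rule, below it, in mitotic cells (filled) and other cells (open) of each library, with exact 95% counting intervals. Every filled point lies to the right of its open point.

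Beyond the rule genes, 89 mitotic genes in 7 lists were followed, and 88 of them had 50 or more UMIs in kept cells. Of these 88, 70 were 2-fold or more higher in mitotic cells of both libraries and 0 were 2-fold or more lower. Over all 9307 genes with as many UMIs, 218 were 2-fold or more higher in both libraries (2.34%) and 512 were 2-fold or more lower (5.5%), and since the rule used this contrast nothing is read from these shares. Over the 88 genes the library labelled WT gave a median log2 ratio of 2.14 and that labelled KO 1.81, against -0.07 and -0.10 over all 9307 genes. Summed, the 89 genes took 35564 CPM in mitotic against 12494 CPM in other cells of the library labelled WT, and 33278 against 13747 CPM in the library labelled KO.

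Among cyclins and CDK1 control genes, 9 of 11 were past 2-fold in both libraries. *Cdk1*, the catalytic partner of cyclin B, stood at 594 against 109 CPM in the library labelled WT and 541 against 159 CPM in the library labelled KO. Its small partners *Cks2* (log2 1.58 and 1.27) and *Cks1b* (1.89 and 1.66) were higher by less, and *Cdc25b*, the phosphatase that activates CDK1, by more (3.38 and 3.25). *Wee1*, the kinase that holds CDK1 inactive, was seen in only 7 and 3 UMIs in mitotic cells, too few for a ratio (log2 interval -2.22 to 2.03 in the library labelled KO).

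Among mitotic kinases and their partners, 10 of 12 were past 2-fold. *Nek2*, a centrosome kinase, had the largest ratio (log2 3.13 and 3.04). *Aurkb*, the kinase of the chromosomal passenger complex, stood at 195 CPM in the mitotic cells of both libraries, against 45.1 and 48.7 CPM in other cells. *Plk4*, which starts centriole duplication, had the smallest (1.52 and 0.80).

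Among kinetochore and centromere genes, 14 of 17 were past 2-fold. *Spc24* and *Spc25*, subunits of the NDC80 complex that binds microtubules, had log2 ratios of 1.62 and 1.38, and of 2.19 and 1.87. *Cenpf* had the largest and *Cenpm*, a constitutive centromere protein, the smallest (0.61 and 0.47). All 17 genes were higher in mitotic cells of both libraries.

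Among spindle motors and microtubule proteins, 18 of 20 were past 2-fold, with *Kif2c*, a microtubule-depolymerising kinesin, the highest at 59.5 against 5.06 CPM and 52.2 against 6.52 CPM. The tubulin genes *Tubb5* (1.54 and 1.40) and *Tuba1b* (0.96 and 0.91) and the tubulin-binding *Stmn1* (0.64 and 0.61) were abundant in other cells too. Of the cytokinesis genes, 6 of 6 were past 2-fold. *Racgap1*, a GTPase regulator of the cleavage furrow, stood at 318 against 50.8 CPM and 245 against 47.0 CPM, and *Cep55*, which acts at the midbody, had log2 ratios of 2.56 and 2.47.

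Genes of the anaphase-promoting complex were the exception, with 3 of 9 past 2-fold. Those 3 were the regulators *Ube2s* (log2 1.48 and 1.18), *Fzr1* (CDH1, the late mitotic activator, 2.16 and 1.82) and *Fbxo5* (EMI1, an inhibitor of the complex, at 97.3 against 34.4 CPM in the library labelled WT and a log2 ratio of 1.18 in that labelled KO). The core subunits *Anapc5* (0.42 and 0.33) and *Anapc13* (0.20 and 0.52) differed little, and *Anapc11*, the RING subunit, was lower (-0.66 and -0.39). *Pttg1*, which encodes securin, had 0.44 and 0.03.

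In the list of chromosome condensation and nuclear envelope genes, 10 of 13 were past 2-fold. *Hmgb2*, a chromatin protein, supplied many of the summed UMIs, at 6737 against 2339 CPM and 6566 against 2736 CPM. *Kpna2*, a nuclear import receptor, had the largest ratio (log2 3.02 and 2.77). *Lbr*, the lamin B receptor, had the smallest (0.49 and 0.74).

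Of 15 regulators of mitotic genes, 1 was past 2-fold higher in both libraries (2.34% over all 9307 genes). This was *Foxm1*, from 15 UMIs in mitotic cells of each library (log2 1.76, 0.79 to 2.65, and 2.27, 1.17 to 3.34). *Nfyb*, a subunit of NF-Y, had log2 ratios of 1.02 and 0.75, and *Lin9* of the MuvB core 1.57 and 0.77. *Mybl2*, which encodes B-MYB, had -0.20 and -1.13 from 15 and 8 UMIs. The 1 regulator past 2-fold lower (5.5% over all 9307 genes) was *E2f1*, an activator of replication genes (-3.18 and -1.86). Most of these genes were thinly counted at this depth.

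Replication genes were lower in mitotic cells when UMIs were pooled over cells. Of 25, 12 were past 2-fold lower in both libraries and 0 past 2-fold higher (5.5% and 2.34% over all 9307 genes). *Ung*, a uracil glycosylase of S phase, had 1 UMI in the mitotic cells of each library, against 326 and 267 in other cells. *Pcna*, the sliding clamp of DNA polymerases, stood at 94.7 against 240 CPM and at 145 against 316 CPM, and *Mcm6* at 35.2 against 117 CPM and at 31.6 against 134 CPM. *Rrm2*, the regulatory subunit of ribonucleotide reductase, which persists into G2, stood at 280 against 297 CPM and at 382 against 383 CPM. These genes, other than *Rrm2*, were picked after their values were seen. By cell the order was the other way: the median share of UMIs from the 25 genes was 0.116% in mitotic against 0.0752% in other cells of the library labelled WT and 0.155% against 0.128% in that labelled KO. The ninetieth percentile was higher in other cells, at 0.408% in mitotic against 0.580% in other cells and at 0.437% against 0.699%.

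Replication-dependent histone genes, whose main transcripts lack the poly(A) tail that the assay primes on, were counted at 2345 against 1189 CPM in the library labelled WT and 1597 against 933 CPM in the library labelled KO. Of 44 with enough UMIs, 7 were past 2-fold higher and 0 lower (2.34% and 5.5% over all 9307 genes). Near-identical copies make single members of this family uncertain. Cytosolic ribosomal protein genes were lower as a group, at 124046 against 156042 CPM and 95372 against 130445 CPM, and 82 of 83 were lower by any amount in both libraries, as were 3740 of all 9307 genes (40.2%). Of 16 nucleolar and chaperone genes, 15 were lower in both, among them *Npm1* (log2 -0.50 and -0.59) and *Hspa8* (-0.63 and -0.63).

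**Figure D3:**
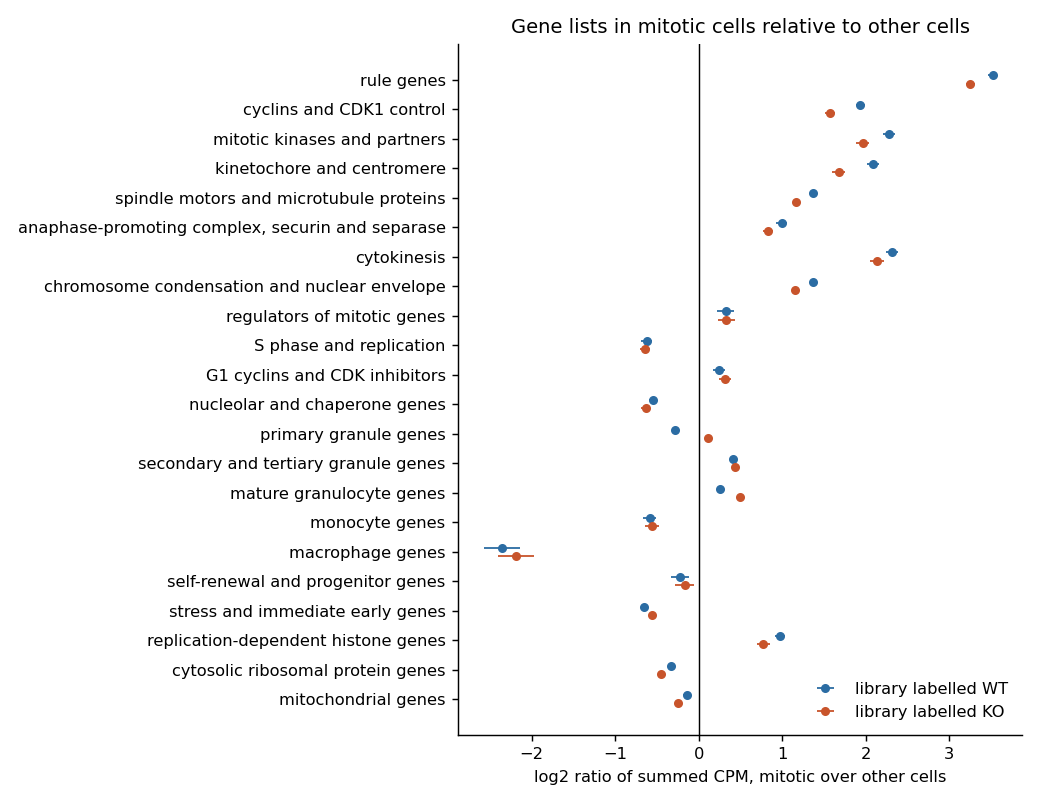
Log2 ratio of the summed CPM of 22 gene lists, mitotic over other cells, in each library, with exact 95% counting intervals. The mitotic lists lie to the right of 0, S phase, nucleolar, monocyte and macrophage genes to the left, and both libraries give the same direction for each list drawn but the primary granule genes. Marker lists of other cell types are not drawn.

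Along the share of rule genes the lists were highest at different places. Other cells with no rule gene UMI had 6931 and 7779 CPM of the other mitotic genes in the libraries labelled WT and KO. Other cells with a UMI, split in 3 equal steps, went from 11648 and 13418 CPM to 29765 and 27805 CPM. Mitotic cells, split in 2 equal steps, had 34406 and 32321 CPM in the lower and 37032 and 34192 CPM in the upper step. S phase genes were highest in the lowest or middle of the 3 steps, at up to 3833 and 4563 CPM, and were at 1587 and 2181 CPM in cells with no rule gene UMI, 1956 and 2556 CPM in the lower mitotic step and 1053 and 1441 CPM in the upper one. Histone genes were highest just outside the limit, at 2834 and 1854 CPM, and were at 1974 and 1398 CPM in the upper mitotic step. A cell with few UMIs is more likely to have none of the 8 genes, and cells without any had medians of 2152 and 1561 UMIs.

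**Figure D4:**
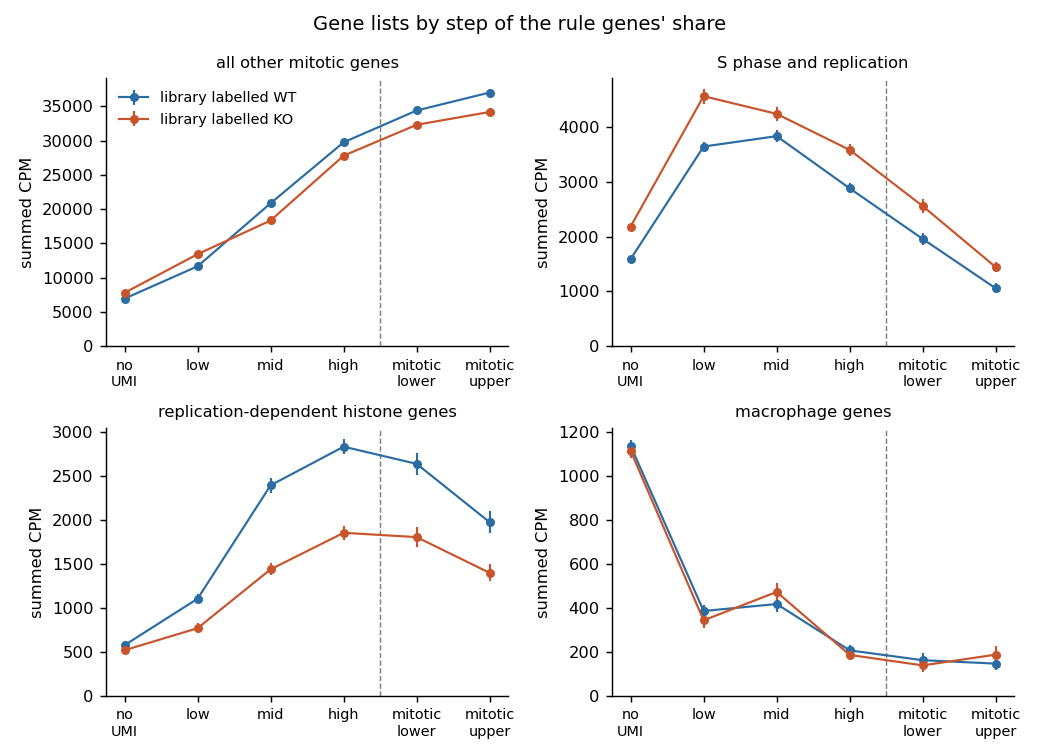
Summed CPM of 4 gene lists in cells ordered by the rule genes' share: other cells with no rule gene UMI, other cells with a UMI in 3 equal steps, and mitotic cells in 2 equal steps (right of the dashed line), for each library with exact 95% counting intervals. Other mitotic genes are higher at each step, while S phase genes are highest in the low and mid steps and histone genes in the high step.

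Among genes in no list with 50 or more UMIs in each library, the 10 with the largest ratios in both were *Fam83d*, *Prr11*, *Fam64a*, *C330027C09Rik*, *Arhgef39*, *Sapcd2*, *Troap*, *Gpsm2*, *Depdc1a* and *Gm10184*. *Fam83d*, which brings casein kinase 1 to the spindle, stood at 39.4 against 2.48 CPM in the library labelled WT and 32.5 against 2.96 CPM in the library labelled KO. *Gpsm2* (LGN), which orients the spindle, stood at 101 against 11.7 CPM and 59.9 against 10.2 CPM. *Fam64a*, also known as *Pimreg*, stood at 107 against 6.59 CPM and 85.5 against 9.78 CPM. The lowest of these 10 ratios in either library was a log2 of 2.53.

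The 10 genes in no list with the lowest ratios were *Retnla*, *Fgfbp3*, *Socs3*, *Sirpb1c*, *Ms4a6d*, *Dusp5*, *Clec4a3*, *Phgdh*, *Alkbh2* and *Ccl4*. Several, such as *Ms4a6d*, *Clec4a3*, *Ccl4* and *Sirpb1c*, are known from monocytes and macrophages. *Retnla* had 0 UMIs in mitotic cells of both libraries against 50 and 70 in other cells. *Fgfbp3* had 4 and 1 UMIs, or 3.35 against 76.5 CPM and 0.86 against 37.2 CPM. *Phgdh*, the first enzyme of serine synthesis, had 1 and 6 UMIs, and *Ccl4*, a chemokine, 8 and 11 (log2 -2.68 and -2.45). All 10 rest on few UMIs in mitotic cells.

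Macrophage genes were lower as a list, at 155 against 793 CPM and 163 against 742 CPM. Of the 4 with enough UMIs, 4 were past 2-fold lower in both libraries (5.5% over all 9307 genes). *Apoe*, a lipid carrier, stood at 88.9 against 505 CPM and 84.7 against 426 CPM. Of 8 monocyte genes, 7 were lower by any amount in both libraries (40.2% over all genes), among them *Ly6c2* (log2 -0.55 and -0.40) and *Ms4a6c* (-0.81 and -1.15).

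Granulocytic transcripts were abundant in the mitotic cells. Primary granule genes went opposite ways, at 12343 against 14995 CPM in the library labelled WT and 14031 against 12942 CPM in that labelled KO. Mature granulocyte genes summed to 39306 against 32868 CPM and 38027 against 26894 CPM. Yet of those 8 genes 2 were higher and 5 lower in both libraries. The genes of secondary and tertiary granules, which are made from the myelocyte stage on, took 89075 CPM in mitotic against 66957 CPM in other cells of the library labelled WT and 82008 against 60891 CPM in the library labelled KO. The members differed in direction: *Camp* (cathelicidin) stood at 23166 against 13704 CPM and 19107 against 13113 CPM, and *Ngp* and *Chil3* were higher as well, while *Mmp8* (neutrophil collagenase) stood at 12.6 against 83.8 CPM and 10.3 against 38.5 CPM. *Ltf* (lactoferrin) was lower too (log2 -0.89 and -0.79). Of the 8 secondary and tertiary granule genes, 4 were higher and 4 lower in both libraries. By cell, the median share of UMIs from these 8 genes was 9.52% in mitotic against 4.65% in other cells of the library labelled WT. It was 7.85% against 2.55% in the library labelled KO. At the ninetieth percentile other cells were higher, with 18.3% in mitotic against 19.3% in other cells and 17.2% against 18.4%.

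Mitotic cells were not alike in this respect. Their granule share ran from 0.76% at the tenth percentile to 18.3% at the ninetieth in the library labelled WT, and from 0.35% to 17.2% in the library labelled KO. The 79 and 105 mitotic cells of the libraries labelled WT and KO with the lowest granule share (up to 4.17% and 2.45%), called the low-granule cells, were set beside as many with the highest (from 14.5% and 13.4%), called the high-granule cells. This split was made after the data were seen and is a description.

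Summed mitotic transcripts differed little between these groups, by a log2 of low over high of -0.11 (-0.15 to -0.07) and -0.03 (-0.07 to 0.01) for the other mitotic genes. All these cells had passed the same limit on the rule genes' share, which by itself favours similar levels. Single lists ranged from -0.32 (chromosome condensation and nuclear envelope) to 0.26 (kinetochore and centromere) in the library labelled WT. In that labelled KO they ranged from -0.22 (kinetochore and centromere) to 0.22 (anaphase-promoting complex). The other mitotic genes took 32969 CPM in the low-granule and 35530 CPM in the high-granule cells of the library labelled WT, and 31173 and 31877 CPM in the library labelled KO. The rule genes took 5733 and 6076 CPM, and 5993 and 6242 CPM. The median rule share of a cell was 0.527% and 0.579%, and 0.565% and 0.577%.

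Their myeloid genes differed. *Mpo* (myeloperoxidase, of primary granules) had 706 UMIs in the low-granule and 13 in the high-granule cells of the library labelled WT, and 908 and 23 in the library labelled KO. *Irf8*, a factor of monocyte and dendritic cell fate, had 149 and 1 UMIs, and 79 and 1. *Cd34*, a progenitor surface marker, had 23 and 1 UMIs, and 40 and 1, and *Ccr2*, a chemokine receptor of monocytes, had 75 and 0 UMIs, and 53 and 0. In the other direction, *S100a8*, an alarmin of neutrophils and monocytes, had 801 and 10242 UMIs, and 1258 and 11389. *Cdkn1c*, an inhibitor of cyclin-dependent kinases, had 18 and 45 UMIs, and 15 and 46. The low-granule cells held more UMIs in total, so these counts are not on the same scale. In CPM, *Mpo* stood at 2024 against 50.4 and at 2825 against 80.9. *S100a8* stood at 2296 against 39736 CPM and 3914 against 40076 CPM, and *Cdkn1c* at 51.6 against 175 CPM and 46.7 against 162 CPM.

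Growth genes were higher in the low-granule cells. Cytosolic ribosomal protein genes took 174810 CPM in the low-granule against 75057 CPM in the high-granule cells of the library labelled WT, and 130620 against 70788 CPM in the library labelled KO. Nucleolar and chaperone genes took 4303 against 1606 CPM and 3553 against 1714 CPM. The low-granule cells were also deeper, with medians of 4425 against 3215 UMIs and 2759 against 2442 UMIs, whose part in these differences was not tested.

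The library labelled WT held 319 mitotic cells among 3866 kept cells, or 8.25% (7.40 to 9.16%, Clopper-Pearson), and that labelled KO held 422 among 3545, or 11.9% (10.86 to 13.02%). The ratio was 1.44, or a log2 of 0.53 (0.32 to 0.74). When cells were thinned to 1000 UMIs before the 10% were chosen, the shares were 6.79% (258 of 3800) and 13.6% (457 of 3351), a ratio of 2.01. Of the 741 mitotic cells, 585 (78.9%) were also chosen after thinning, where they made up 81.8% of 715. When all listed mitotic genes chose the cells in place of the 8, the log2 ratio was 0.21. The share was higher in the library labelled KO under each choice, but its size depended on the choice, and with 1 pool per genotype it cannot be told apart from differences between leukemias or between captures.

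Within mitotic cells, 4442 genes had 50 or more UMIs. Of these, 371 were 1.5-fold or more higher (8.35%) and 421 were 1.5-fold or more lower (9.48%) in the library labelled KO, and the median log2 ratio was 0.03. The balance turned with the choice of cells: 293 were higher and 255 lower with 5% of cells chosen, and 320 higher and 236 lower among cells with 1000 or more genes, against 401 higher and 688 lower with 20% chosen. Of 84 listed mitotic genes among them, 2 were 1.5-fold or more higher and 16 were 1.5-fold or more lower, with a median log2 ratio of -0.17. In other cells the same 84 genes had a median of 0.07. The 2 higher genes were the kinases *Pbk* (0.75) and *Ttk* (0.66, from 20 and 31 UMIs, interval -0.20 to 1.55).

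The lower mitotic genes included several that encode very large proteins. *Cenpf*, at chr1:189640606-189688086 on the minus strand (mm10), had 308 UMIs in the mitotic cells of the library labelled WT and 92 in those of the library labelled KO, or 258 and 78.7 CPM (log2 -1.71, -2.07 to -1.37). *Mki67*, which encodes the coat protein Ki-67 of mitotic chromosomes, had 135 and 37 UMIs (-1.84, -2.40 to -1.30). *Casc5* (*Knl1*), the kinetochore scaffold, had 158 and 44 UMIs (-1.82, -2.33 to -1.33). *Smc2*, a condensin subunit, had 335 and 141 UMIs (-1.22, -1.51 to -0.93), and *Kif11*, the bipolar spindle kinesin, had 119 and 49 UMIs (-1.25, -1.76 to -0.76). Other cells gave lower values for the same genes in the library labelled KO too, such as -0.91 for *Cenpf* and -1.32 for *Mki67*.

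Among the 84 listed mitotic genes, 26 had a longest annotated transcript of 4000 bases or more (GENCODE M21), and 21 of these 26 were below 0, with a median log2 ratio of -0.53. In other cells the same 26 genes had a median of -0.31. Over all genes that long, 578 of 992 were below 0 in mitotic cells, with a median of -0.09. The 17 listed genes under 2000 bases had a median of 0.04. Spearman's rho between length and the log2 ratio was -0.46 over the 84 genes in mitotic cells and -0.36 for the same genes in other cells. Over all 4436 genes with enough UMIs and a length it was -0.15 in mitotic and -0.20 in other cells. The genes share the same cells and the same 2 libraries, so rho is a description. The library labelled KO also had fewer UMIs per cell, and the part of depth or RNA quality in this relation was not tested.

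**Figure D5:**
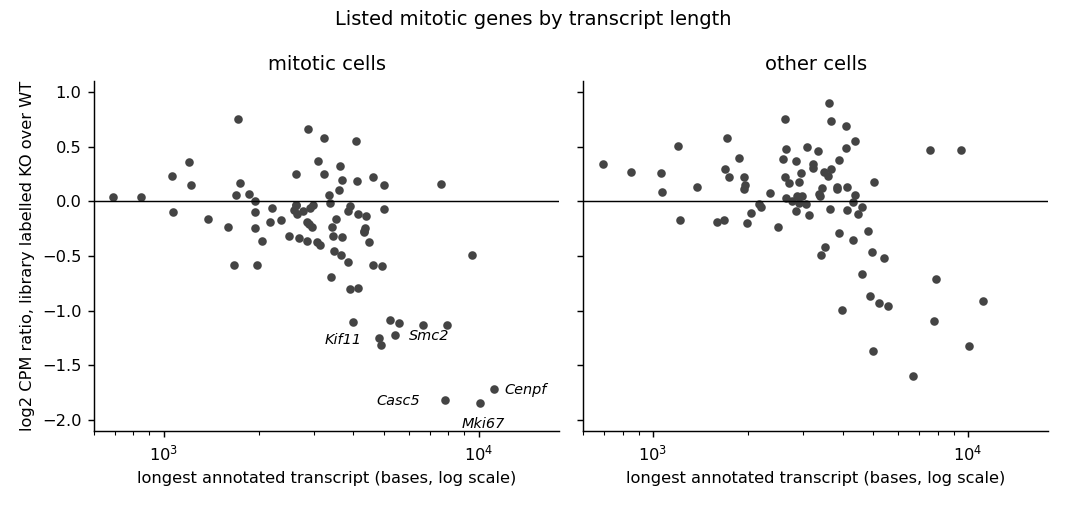
Log2 CPM ratio of the library labelled KO over that labelled WT for the 84 listed mitotic genes with 50 or more UMIs in mitotic cells, against the length of the longest annotated transcript (log scale), in mitotic cells (left) and in other cells (right). The genes with the lowest ratios in mitotic cells, *Mki67*, *Casc5* and *Cenpf*, are among the longest.

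Leaving out histone and Gm-numbered genes, pseudogenes and the X-inactivation and Y-linked genes, the 10 whose intervals lay farthest below 0 were *Rrp1b*, *Aspm*, *Blvrb*, *BC100530*, *Cenpf*, *Casc5*, *Mki67*, *Atrx*, *Tln1* and *Klf13*. *Aspm*, a spindle pole protein, had 65 and 12 UMIs (log2 -2.41, -3.43 to -1.51), 23 of the 65 in 1 cell. *Rrp1b*, a nucleolar protein, had 50 and 8 UMIs, 16 of the 50 in 1 cell. *BC100530*, a member of the stefin A cluster, had 2823 and 951 UMIs (-1.54, -1.65 to -1.43), and its near-identical neighbours make its count uncertain. *Atrx*, a chromatin remodeller, had 126 and 36 UMIs and *Tln1* (talin) 187 and 60, and both were lower in other cells as well (-1.32 and -1.21).

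With the same genes left out, the 10 whose intervals lay farthest above 0 were the hemoglobin genes *Hbb-bs*, *Hbb-bt*, *Hba-a1* and *Hba-a2*, the antigen presentation genes *Cd74* and *H2-Aa*, and *Kat2a*, *Nras*, *Tnfsf13b* and *Prg2*. Several rested on single cells. Of 347 *Hbb-bs* UMIs in the mitotic cells of the library labelled KO, 333 were in 1 cell, which had 844 UMIs of erythroid markers among 7380 and 34 UMIs of rule genes. The library labelled WT had 1 *Hbb-bs* UMI in mitotic cells. The same cell held 40 UMIs of megakaryocyte markers. Another mitotic cell of the library labelled KO held 50 UMIs of the B cell list and was one of the high-granule cells above. The list's 56 UMIs in those high-granule cells were all from *Cd79b*. *Ms4a1* and *Pax5*, which mark B cells, were at 0 in the mitotic cells of both libraries. Without these 2 cells, 363 genes were 1.5-fold or more higher and 416 lower.

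*Cd74*, the invariant chain, had 3 UMIs in the mitotic cells of the library labelled WT and 229 in those of the library labelled KO, where they lay in 31 cells and 93 were in 1 cell. *H2-Aa* had 0 and 67 UMIs. *Tnfsf13b* (BAFF) had 6 and 56 UMIs, 48 of the 56 in 1 cell, and *Prg2*, a granule protein of eosinophils, had 10 and 73 UMIs, 34 of the 73 in 1 cell. *Nras*, a small GTPase, had 23 and 179 UMIs (log2 2.99, 2.36 to 3.68), 69 of the 179 in 1 cell, and 3.09 in other cells. The share of cells with *Nras* differed far less. It was detected in 22 of 319 and 37 of 422 mitotic cells (6.9% and 8.8%) and in 7.0% and 8.4% of other cells.

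*Kat2a* was detected in 47 of 422 mitotic cells of the library labelled KO (11.1%) and in 422 of 3123 other cells (13.5%), against 9 of 319 (2.8%) and 115 of 3547 (3.2%) in the library labelled WT. One mitotic cell of the library labelled KO held 18 of the 111 UMIs.

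Markers of other cell types were sparse among mitotic cells. The 7 T and NK cell markers took 99.8 and 296 CPM in the mitotic cells of the libraries labelled WT and KO, from *Nkg7* alone, with the other 6 of 7 at 0. The 7 erythroid markers took 5.03 and 747 CPM, the 5 megakaryocyte markers 8.38 and 79.5 CPM, the 5 B cell markers 42.8 and 89.8 CPM and the 4 mast cell and basophil markers 25.2 and 43.6 CPM. In other cells the T and NK cell list took 208 and 322 CPM and the erythroid list 231 and 503 CPM. The part of cells with such markers in the differences between libraries was not tested beyond leaving out the pair of cells above. Of the barcode sequences, 28 occurred in both libraries, among them those of 4 mitotic cells of the library labelled KO and 2 of the library labelled WT, and 0 were mitotic in both. Scrublet scores in the top 5% were found in 3.13% and 4.27% of mitotic and 4.68% and 4.35% of other cells. The caller cannot be said to have worked on these libraries, so these shares do not show how many mitotic cells are doublets.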

How the data were processed

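Single-cell transcripts were measured in 2 libraries, 1 pool of leukemias per genotype. The authors ran Cell Ranger, and the deposited matrix holds raw UMI counts, not normalized, for 27998 genes. The submitters' processing notes name Cell Ranger 1.3.1 and mm10, while the study's methods name another Cell Ranger version. Libraries share the matrix and were told apart by barcode suffix, per the study's analysis code.

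Kept cells had 500 or more genes, and doublets were kept, since Scrublet (scanpy 1.11.5) marked 6 of 3866 and 0 of 3545 cells with its own threshold, a rate at which the caller cannot be said to have worked. Counts were summed per library and cell group and scaled to CPM. Ratios carry exact conditional binomial intervals, sums exact Poisson intervals and shares Clopper-Pearson intervals, at 95%. Only genes with 50 or more UMIs were counted, over kept cells for mitotic against other cells and over mitotic cells for the libraries. No significance test was run. The code for ratios and intervals was checked on simulated counts.

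The background cells were the 5% of kept cells richest in mature granulocyte genes other than *S100a8* and *S100a9*, less those that were mitotic. Named were the 8 rule genes, the members of each mitotic list with most UMIs (3) and with the largest and smallest ratio, the 10 genes in no list at each end of the smaller ratio of both libraries, the 10 in each direction whose interval between libraries lay farthest from 0 (leaving out Gm-numbered, histone, X-inactivation and Y-linked genes and pseudogenes), *Kat2a*, and in other lists the 3 with most UMIs. Other names were picked after their values were seen. The members and lists were chosen with earlier results of these data known. Gene lengths are from GENCODE M21, and 27645 identifiers matched. Promoters are from RefSeq (GRCm38.p6), matched on symbol. Alternatives varied the choice of cells, the rule genes, the weighting of cells and the UMI limits.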

Additional observations from a re-analysis of the deposited data

Results flagged for a closer look

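Cells under 500 genes were left out of every comparison, yet those of the library labelled KO held rule gene transcripts above the level in the library labelled WT. In 695 such cells of the library labelled KO the 8 genes had 127 UMIs, or 191 CPM (159 to 227), against 15 UMIs, or 67.2 CPM (37.6 to 111), in 203 cells of the library labelled WT. Of the 695, 8 (1.15%) had a share past the lowest among the mitotic cells, and 0 of the 203 did, which allows a share of up to 1.48%. These cells had medians of 907 and 1063 UMIs, and the part of depth in this difference was not tested.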

How the results depend on the processing

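Of 63 alternative values, 57 moved by less than the counting interval (share by library) or less than 1.5 times (the rest). For log2 ratios this means a 1.5-fold change of the ratio. That limit is wider than the median log2 ratio between libraries in mitotic cells, -0.17, so the staying of that median within it says little. Of the log2 ratios, 0 changed sign. Numbers of genes and the ratio of UMIs have no sign, so a reversal could not be found for them. The log2 ratio of the share of mitotic cells, 0.53, became 1.01 with cells thinned to 1000 UMIs, 0.75 with 5% of cells chosen, 0.89 among cells with 1000 or more genes and 0.21 with all listed mitotic genes as the rule. Genes past 2-fold between mitotic and other cells numbered 730 and, with 50 or more UMIs in each library, an alternative chosen after seeing the data, 457 (170 higher, 287 lower). Genes past 1.5-fold between libraries numbered 792 and, with no limit beyond 1 UMI in each group, 3809 (1657 higher, 2152 lower). Those lower in the library labelled KO went from 421 to 255 with 5% of cells, 688 with 20% and 236 among cells with 1000 or more genes, and those higher from 371 to 293, 401 and 320, as the number of genes over the limit went from 4442 to 2865, 6138 and 3068. Numbers split into higher and lower genes are not among the 63 values. The mean of the libraries' ratios of median UMIs, 1.39, ranged from 1.03, among cells with 1000 or more genes, to 1.51. The median log2 ratio of other mitotic genes over both libraries, 1.99, ranged from 1.59 to 2.44, and that between libraries in mitotic cells from -0.19 to -0.09. No paired analysis was possible because each genotype has 1 library. Depth limits the regulators and low genes, of which mitotic cells held few UMIs.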

Other observations

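Inhibitors of cyclin-dependent kinases differed among themselves in mitotic cells. *Cdkn2d* (p19), with the most UMIs of its list in mitotic cells, stood at 568 against 268 CPM in the library labelled WT and at 629 against 300 CPM in the library labelled KO. *Cdkn1c* (p57) stood at 174 against 102 CPM and 106 against 58.4 CPM. *Cdkn2c* (p18) was level (log2 0.02 and 0.22), and *Cdkn1a* (p21) had intervals that held 0 (-0.72 to 0.05 and -0.49 to 0.07). *Ccnd2*, cyclin D2 of G1, had 0 and 3 UMIs in mitotic cells against 112 and 143 in other cells. *Ccnd3*, another D cyclin, was level (-0.01 and 0.14).

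Of 12 self-renewal and progenitor genes, 0 were past 2-fold in both libraries, and 4 were higher and 7 lower by any amount. Over all 9307 genes 28% were higher and 40.2% lower, so nothing is read from this split. The sum of the 12 had log2 ratios of -0.22 (-0.34 to -0.11) and -0.17 (-0.28 to -0.05). *Hoxa9*, a target of MLL fusions, stood at 181 against 179 CPM in the library labelled WT and at 153 against 114 CPM in that labelled KO (log2 0.42, 0.18 to 0.66). *Myb*, a factor of myeloid progenitors, was lower (-0.54 and -0.33), and *Meis1*, a partner of HOXA9, had log2 ratios of 0.27 and 0.24 with intervals that held 0. *Myc*, a growth regulator, was lower, with 16 and 27 UMIs in mitotic cells (log2 -1.69 and -0.97). Of 10 stress and immediate early genes with enough UMIs, 9 were lower by any amount in both libraries (40.2% over all 9307 genes), among them *Fos* (-0.81 and -0.62) and *Dusp1* (-0.72 and -0.50). These genes respond to handling of cells, and the part of thawing and sorting was not tested.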
